A study of Rattus norvegicus with 6 samples.

Results

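The intermediate filament genes described here are Nefl, Nefm, Nefh, Ina, Prph, Vim and Nes, 7 of the 22536 genes in a table of RNA abundance from rat sensory tissue. They were taken by gene name, each was found once, and all 7 passed the filter on low values. The tissue came from 3 male rats with painful diabetic neuropathy (PDN), the pain that can follow nerve damage in diabetes, and from 3 male control rats. The labels name the tissue "sensory neuron", while the title of the series speaks of the dorsal root ganglion, which holds the cell bodies of sensory neurons beside the spinal cord. The sources used here do not state the strain or age of the rats, how diabetes was induced, or any treatment of the controls. The 3 rats per group are counted in the design text, so each library was taken as 1 animal.

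Intermediate filaments are rope-like polymers that give a cell mechanical strength. In mature neurons they are built mainly from the neurofilament triplet, the light (Nefl), medium (Nefm) and heavy (Nefh) chains, with alpha-internexin (Ina) in the central nervous system or peripherin (Prph) in the peripheral nervous system as a further subunit. Neurofilaments fill large axons and set their calibre, and the tails of the medium and heavy chains are heavily phosphorylated there. Peripherin is typical of small sensory neurons and is known to respond to nerve injury. Vimentin (Vim) is the filament protein of fibroblasts, endothelial cells and immature glia, and nestin (Nes) is best known from neural progenitors but is also made by vessel cells and Schwann cells.

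Levels are given in FPKM (fragments scaled to transcript length and library size, so that levels can be compared between genes). A constant that links the deposited tables ran from 51855000 to 62785000 over the libraries. It was taken as the number of fragments behind the FPKM values, which was not checked. Summed over 20 pan-neuronal genes, FPKM was 7154 to 7455 in PDN libraries and 7037 to 7616 in controls. Schwann cell markers (16 genes) summed to 4649 to 5470 FPKM in PDN libraries and 4758 to 5749 in controls, so the tissue held glia as well as neurons. Control 2 and PDN 3 carried the most skeletal muscle RNA. Over 9 muscle genes, FPKM summed to 607.2 in control 2 and 195 in PDN 3. The same sum was 35.8 in PDN 1, 2.29 in PDN 2, 2.14 in control 1 and 2.13 in control 3. Pvalb, a muscle gene that sensory neurons also express, was left out of that sum after its values were seen. In tissue of mixed cells, fewer cells of a type and less RNA per cell cannot be told apart.

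The neurofilament triplet was among the most abundant mRNA of this tissue, and its level was close to equal in both groups. Nefl ranked 4 to 6 among all genes across the 6 libraries, Nefm 10 to 12 and Nefh 12 to 16. The 3 genes together took 1.06% to 1.36% of all FPKM in PDN libraries and 1.13% to 1.37% in controls. Their summed level was 4627, 3733 and 4351 FPKM in PDN 1, 2 and 3, against 4824, 3948 and 4057 in control 1, 2 and 3. The groups overlapped, and the difference of -0.013 on the log2 scale had an exact permutation p of 1 (two-sided, 3 against 3 libraries, where the smallest possible p is 0.1).

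Nefl (ENSRNOG00000013658), the light chain on which the other chains assemble, lies on chromosome 15 from 44799334 to 44804574, in the coordinates of the deposited file, for which the sources used here name no genome build. It was at 2034, 1690 and 1926 FPKM in PDN libraries and at 2018, 1806 and 1910 FPKM in controls. PDN 2 was the lowest of all 6 libraries and PDN 1 the highest, so both extremes came from the same group. The means were 1883 ± 175.5 FPKM in PDN rats and 1911 ± 105.7 in control rats (SD, n = 3 per group), which gave a log2 fold change of -0.024 ± 0.099 (SE) with an adjusted p of 0.999 in limma. Its 95% interval runs from 0.838-fold to 1.15-fold.

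Nefm (ENSRNOG00000013916), the medium chain, also lies on chromosome 15, from 44855310 to 44860604. Its values were 1383, 1099 and 1275 FPKM in PDN and 1541, 1120 and 1133 FPKM in controls. Control 1 stood above every other library, and the remaining 5 lay between 1099 and 1383. The log2 fold change was -0.0042 ± 0.15 (SE), with an adjusted p of 1.00 in limma, and it was 0.15 without control 1.

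Nefh (ENSRNOG00000008716), the heavy chain, lies on chromosome 14 from 85181572 to 85191557. It had 1210, 943.4 and 1150 FPKM in PDN libraries, against 1264, 1022 and 1014 FPKM in controls. As with Nefm, control 1 was highest and PDN 2 lowest. The means of 1101 ± 140 FPKM in PDN rats and 1100.3 ± 142.2 in control rats (SD, n = 3 per group) gave a log2 fold change of 0.00072 ± 0.13 (SE), with an adjusted p of 1.00 in limma. The 95% interval of the ratio of PDN to control runs from 0.81 to 1.24.

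Prph (ENSRNOG00000052880), which encodes peripherin, lies on chromosome 7 from 140742418 to 140746197. It was at 766.5, 742 and 758 FPKM in PDN and at 830.4, 773.4 and 764.3 FPKM in controls. It varied least of the 7 genes, with a coefficient of variation of 3.93% over the 6 libraries, and its groups overlapped only because PDN 1 lay just above control 3. The log2 fold change of -0.062 ± 0.070 (SE) had an adjusted p of 0.999 in limma, and its 95% interval, from 0.855-fold to 1.07-fold, was the narrowest of the 7.

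Ina (ENSRNOG00000020248), which encodes alpha-internexin, lies on chromosome 1 from 266781617 to 266794431. Its level was far below that of the triplet, at 33.0, 15.3 and 19.0 FPKM in PDN 1, 2 and 3 and at 19.0, 16.4 and 18.2 FPKM in controls. PDN 1 alone stood apart, while PDN 2 was the lowest library of all. The means were 22.4 ± 9.34 FPKM in PDN rats and 17.9 ± 1.31 in control rats (SD, n = 3 per group), which gave a log2 fold change of 0.24 ± 0.24 (SE) with an adjusted p of 0.999 in limma. Leaving out PDN 1 brought the log2 fold change to -0.061, so the direction of the estimate rests on that library.

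Because alpha-internexin is abundant in the central nervous system, markers of spinal cord cells were read beside it, chosen after the value of PDN 1 was seen. The 10 genes (Gad2, Slc32a1, Slc6a5, Pax2, Mnx1, Chat, Olig1, Olig2, Mog and Aqp4) summed to 0.714 FPKM in PDN 1, within the 0.702 to 1.21 of the other PDN libraries and the 0.565 to 0.965 of controls. In PDN 1, 5 of them were listed at 0, of which Olig2, Pax2 and Mnx1 were at 0 in all 6 libraries, and the highest was Aqp4 at 0.343 FPKM. None of the other 7 was at its highest in PDN 1. No marker exceeded 0.733 FPKM in any library, and the source of the Ina value in PDN 1 was not tested.

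Vim (ENSRNOG00000018087), which encodes vimentin, lies on chromosome 17 from 80882666 to 80891212. It was at 358.2, 386.9 and 479.7 FPKM in PDN, against 436.9, 446.3 and 367.7 FPKM in controls. Both the highest library (PDN 3) and the lowest (PDN 1) were PDN libraries. The means were 408.3 ± 63.5 FPKM in PDN rats and 417 ± 42.9 in control rats (SD, n = 3 per group), with a log2 fold change of -0.036 ± 0.13 (SE) and an adjusted p of 0.999 in limma.

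Nes (ENSRNOG00000018681), which encodes nestin, lies on chromosome 2 from 187344056 to 187352969. It was at 13.9, 14.7 and 15.3 FPKM in PDN and at 16.7, 18.6 and 13.6 FPKM in controls. The 3 PDN values lay inside the control range. The log2 fold change of -0.14 ± 0.11 (SE) was the lowest of the 7, with an unadjusted p of 0.26 and an adjusted p of 0.999 in limma. It was -0.041 without control 2, the library with the highest nestin level, and -0.25 without control 3, the lowest, where the unadjusted p was 0.026 and the adjusted p 1.00 in limma.

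Of the 7 genes, 0 passed an adjusted p of 0.05 in limma, and 0 had an unadjusted p under 0.05. Over the 13282 genes tested, the share past the adjusted threshold was 0% (0% higher and 0% lower in PDN), and 4.72% (627 genes) had an unadjusted p under 0.05, 1.83% higher and 2.89% lower in PDN. The groups were free of overlap in 0 of the 7 genes, against 9.93% of all tested genes, 3.69% higher and 6.24% lower in PDN. Estimates were below 0 in 5 filament genes and above 0 in 2, where 56.6% of all genes had an estimate below 0. The median log2 fold change was -0.024 for the 7 genes and -0.016 for all tested genes.

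**Figure D1:**
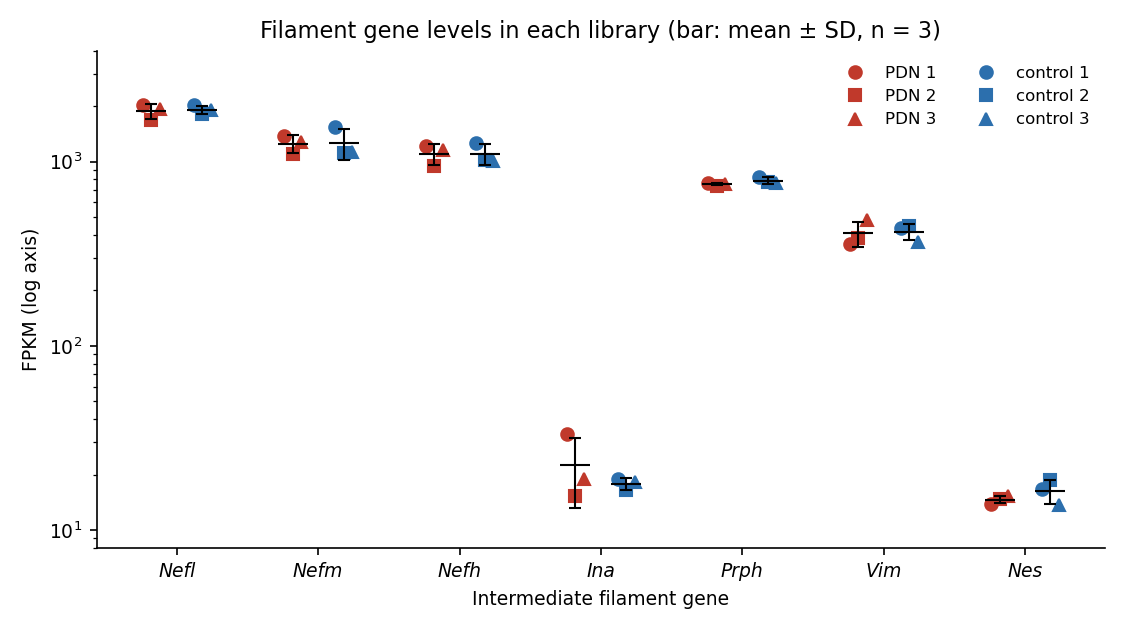
FPKM (log axis) of the 7 filament genes, with a point for each library, PDN left of control, and black bars for the mean ± SD (n = 3). PDN and control points overlap for every gene, and the Ina value of PDN 1 (33.0 FPKM) stands above the other 5 libraries.

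**Figure D2:**
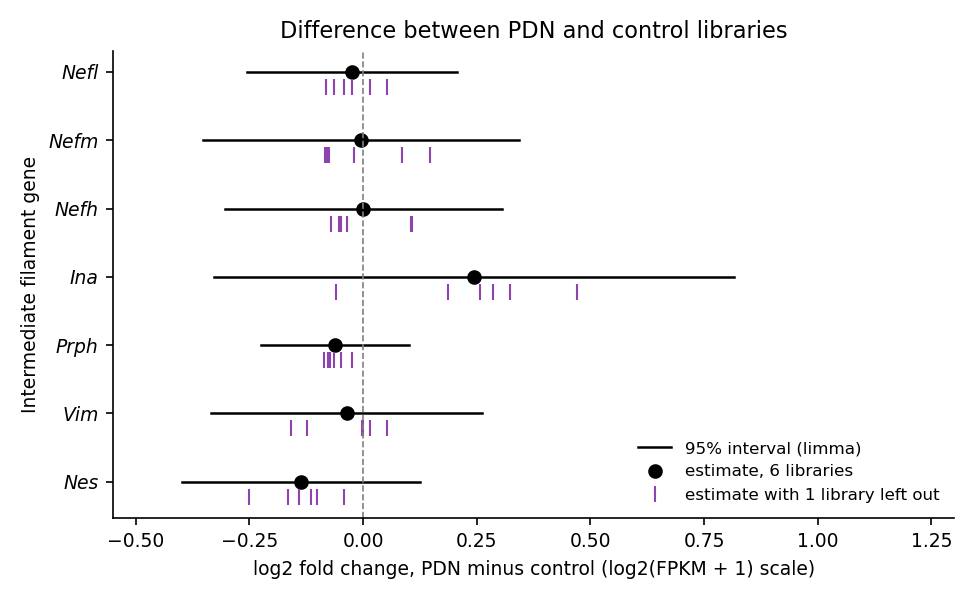
Estimated log2 fold change of each filament gene, PDN minus control, with its 95% interval from limma (line) and the estimates with 1 library left out (ticks below the line). Every interval includes 0, the interval of Prph is the narrowest, and the Ina tick at -0.061 is the estimate without PDN 1.

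The order of the genes by level was stable across animals. Averaged over the 6 libraries, Nefl (1897 ± 130.5 FPKM, SD) was above Nefm (1259 ± 176.7), Nefh (1101 ± 126.2), Prph (772.4 ± 30.3), Vim (412.6 ± 48.7), Ina (20.1 ± 6.47) and Nes (15.5 ± 1.87). Each of Nefl, Nefm, Nefh, Prph and Vim was above the next gene of this order in 6 of 6 libraries, and Ina was above Nes in 5 of 6. Over libraries, the ranges of Nefm and Nefh overlapped, as did those of Ina and Nes, while the other neighbours were separated. Between Vim and Ina the mean level dropped 20.5-fold.

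Promoter sequence is given for a pair of genes at high level (Prph and Vim) and a pair at low level (Ina and Nes), since the levels within a library differed so widely. The 100 bases before the annotated start come from RefSeq, assembly GRCr8, plus strand, 5′ to 3′. For Nefl, Nefm and Nefh none is printed. Capitals mark a TATA box (TATAAA), a GC box (GGGCGG, or CCGCCC where it lies on the other strand) or a CCAAT box (CCAAT), each searched on both strands. No marked motif overlaps another.
Prph, chr7:132097189-132097288: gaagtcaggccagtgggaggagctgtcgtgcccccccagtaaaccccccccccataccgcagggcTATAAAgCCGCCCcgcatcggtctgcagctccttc
Vim, chr17:81577161-81577260: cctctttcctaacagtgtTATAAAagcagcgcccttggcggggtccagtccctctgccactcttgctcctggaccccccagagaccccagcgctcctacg
Ina, chr1:255838029-255838128: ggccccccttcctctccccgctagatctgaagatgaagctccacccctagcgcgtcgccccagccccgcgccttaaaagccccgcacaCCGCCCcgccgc
Nes, chr2:175736488-175736587: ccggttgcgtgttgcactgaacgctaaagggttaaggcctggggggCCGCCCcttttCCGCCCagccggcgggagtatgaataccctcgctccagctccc

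TATAAA was found in the windows of Prph, where it begins at position -35 from the annotated start, and of Vim, where it begins at -82, and not in those of Ina and Nes. Among the 33469 promoter windows of the same length in that table, 5.78% hold TATAAA on either strand. A GC box was found once in Prph, once in Ina and 2 times in Nes, and 21.6% of all windows hold one. CCAAT was found in none of the 4 windows and is held by 17.1% of all. These matches describe the letters of the windows only.

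Chains of neuronal filaments assemble with one another, so their mRNA proportions were compared within each library. This readout does not depend on library scaling. Ratios of Vim or Nes to Nefl compare genes typical of different cells, so cell makeup can enter them. Nefm stood at 0.68, 0.65 and 0.662 of the Nefl level in PDN libraries, against 0.764, 0.62 and 0.593 in controls. The 3 PDN ratios lay inside the control range, and the controls were spread more widely. Nefh stood at 0.595, 0.558 and 0.597 of Nefl in PDN and at 0.627, 0.566 and 0.531 in controls, which overlapped in the same way. Prph was 0.403 ± 0.0321 of Nefl in PDN and 0.413 ± 0.0141 in control rats (SD, n = 3 per group).

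The Ina to Nefl ratio was tight in every library except 1. The PDN libraries had ratios of 0.0162 (PDN 1), 0.00906 (PDN 2) and 0.00986 (PDN 3), against 0.0094, 0.00909 and 0.00953 in controls. In the 5 other libraries alpha-internexin mRNA thus stayed below 0.01 of the light chain level. Vim was 0.218 ± 0.0377 of Nefl in PDN and 0.219 ± 0.0274 in controls, and Nes was 0.0362 ± 0.00382 of Vim in PDN and 0.0389 ± 0.00239 in control rats (SD, n = 3 per group). Nes was 0.00782 ± 0.000944 of Nefl in PDN and 0.00856 ± 0.0016 in controls.

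None of these 7 ratios separated the groups. Their exact two-sided permutation p-values ran from 0.5 to 1, where the smallest possible p is 0.1, and each was 1 after Benjamini-Hochberg adjustment over the 7 ratios. The design could not have passed a threshold of 0.05 for any of them.

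**Figure D3:**
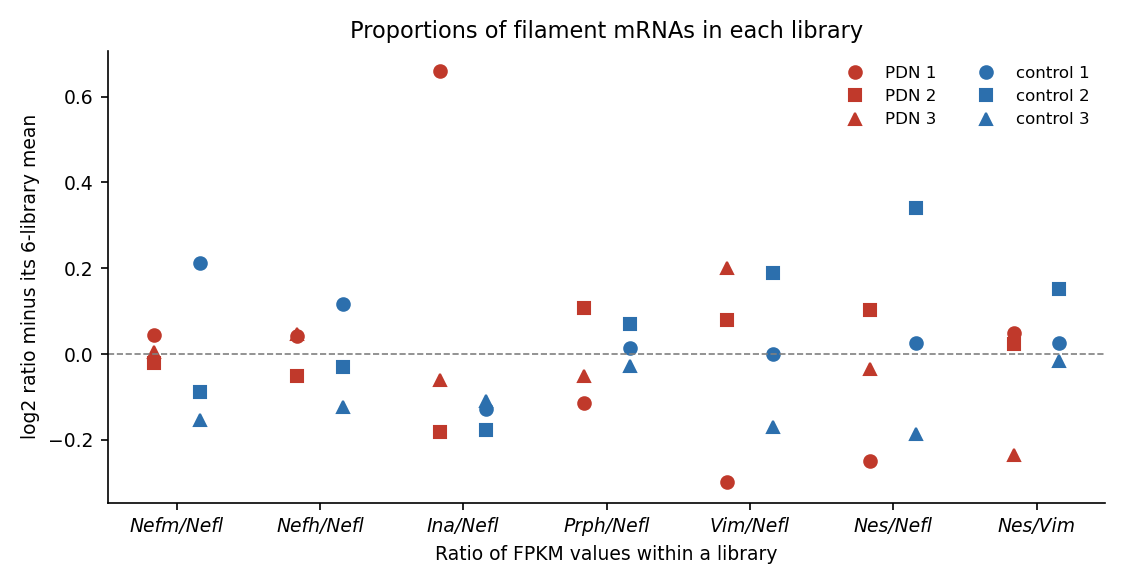
Ratio of FPKM values within each library, as the log2 ratio minus its mean over the 6 libraries, with PDN points left of control points. The groups overlap in each ratio, and the Ina to Nefl ratio of PDN 1 (0.0162) lies above those of the other 5 libraries.

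Across libraries the neurofilament chains varied together, in a pattern unlike that of vimentin and nestin. Relative to the mean of the 6 libraries on the log2(FPKM + 1) scale, PDN 1 was at 0.10 for Nefl, 0.15 for Nefm and 0.14 for Nefh, PDN 2 at -0.16, -0.18 and -0.21, and control 1 at 0.092, 0.30 and 0.21. All 3 chains were thus above their means in PDN 1, PDN 3 and control 1, and below them in PDN 2 and control 2, which crosses the group labels. As a description over 6 libraries that share their scaling, Pearson's r was 0.965 between Nefm and Nefh, 0.909 between Nefl and Nefh and 0.832 between Nefl and Nefm. Prph followed the triplet less closely, with r of 0.603 with Nefl, 0.767 with Nefm and 0.700 with Nefh. For Ina, r was 0.733 with Nefl, 0.556 with Nefm and 0.641 with Nefh.

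Vim and Nes had an r of 0.713 with each other, and of -0.032 and -0.18 with Nefl. Both were below their means in PDN 1, PDN 2 and control 3 and above them in control 1 and control 2. Of the marker lists, the Schwann cell score was highest in PDN 3 (0.172) and control 2 (0.150) and lowest in PDN 1 (-0.118). The endothelial score was lowest in PDN 1 (-0.249) and highest in control 2 (0.229). The fibroblast score was -0.101, -0.159 and -0.017 in PDN 1, 2 and 3, against 0.104, 0.0938 and 0.0794 in control 1, 2 and 3. It was thus above its mean in control 3, where Vim and Nes were low, and below it in PDN 3, where Vim was highest. The part of cell makeup in the levels of Vim and Nes was not tested.

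**Figure D4:**
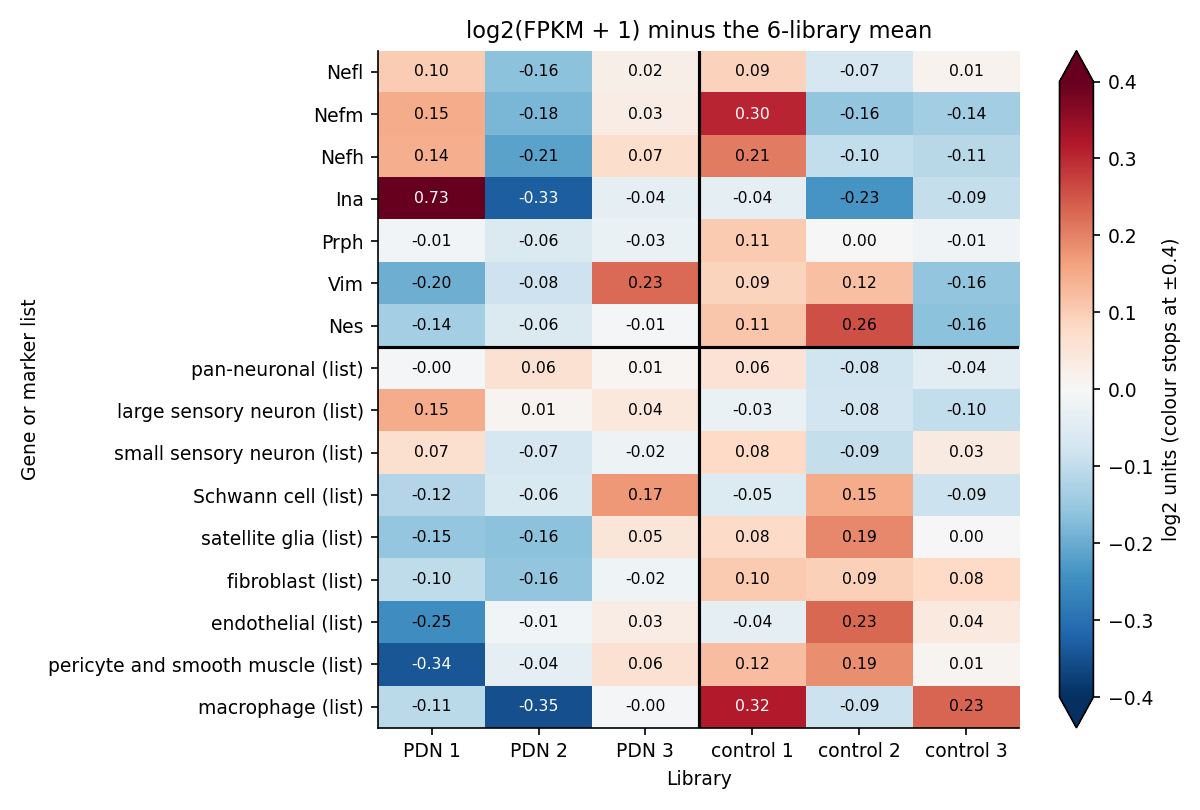
log2(FPKM + 1) of each filament gene, and the mean of each marker list, minus the 6-library mean, in the 3 PDN and 3 control libraries (colour stops at ±0.4). Nefl, Nefm and Nefh share high and low libraries across both groups, while Vim is highest in PDN 3 (0.23) and lowest in PDN 1 (-0.20).

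The genes whose pattern over the libraries was most like that of Nefl were Fkbp15, Kif21b (a kinesin motor), Dagla (the enzyme that makes the endocannabinoid 2-arachidonoylglycerol), Diras2 (a small GTPase) and Apc2. Their Pearson's r with Nefl over 6 libraries ran from 0.978 to 0.992, among 9128 genes ranked. Fkbp15 was at 11.6, 9.14 and 11.2 FPKM in PDN libraries and at 11.6, 10.05 and 10.7 FPKM in controls. The genes most like Vim were Zdhhc16, Sdhaf1, Asrgl1, Nop56 and Slc44a1 (a choline transporter), with r from 0.981 to 0.995. Slc44a1 was at 92.6, 99.1 and 110.1 FPKM in PDN and at 104.8, 107.2 and 97.3 FPKM in controls. Values this close are descriptions of 6 libraries, and the nearest genes were picked from a large number.

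No gene listed for its action on neurofilaments passed the adjusted threshold. Of 17 cross-linkers, turnover factors and transport motors, all tested, 14 had an estimate above 0 and 3 below. Among all tested genes, 43.4% had an estimate above 0. The median log2 fold change of the 17 genes was 0.053. Kif5b, a heavy chain of the kinesin that carries neurofilaments, was at 119.6 ± 5.39 FPKM in PDN rats and 108.2 ± 7.24 in control rats (SD, n = 3 per group), with an adjusted p of 0.999 in limma. The median of the 17 genes was -0.0098 without control 2 and 0.0020 without PDN 1.

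Of 24 kinases, phosphatases and RNA-binding proteins of neurofilaments, 0 passed, 7 had an estimate above 0 and 17 below, and the median was -0.024. Among all tested genes, 56.6% had an estimate below 0. Camk2a, a subunit of a calcium-dependent kinase, was at 20.9 ± 0.537 FPKM in PDN rats and 18.8 ± 2.54 in control rats, and Tardbp, whose product TDP-43 binds the light chain mRNA, was at 34.0 ± 3.98 FPKM in PDN rats and 37.2 ± 2.91 in control rats (SD, n = 3 per group). Both lay within the spread of the libraries.

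Among 24 other intermediate filament genes, 13 were tested and 0 passed, with 5 estimates above 0, 8 below and a median of -0.039. Krt80, a keratin, was at 1.52, 1.47 and 1.41 FPKM in PDN libraries, against 0.736, 0.98 and 0.822 in controls, a log2 fold change of 0.42 with an unadjusted p of 0.0038 and an adjusted p of 0.782 in limma. Gfap, the filament gene of astrocytes and satellite glia, was at 3.79, 3.64 and 5.51 FPKM in PDN libraries, against 5.52, 8.07 and 5.60 in controls. Its unadjusted p was 0.030 and its adjusted p 0.999 in limma. These 2 were named because their p was the smallest in the list, so their separation is no finding. Synm, whose product synemin joins vimentin filaments, was at 76.2 ± 8.60 FPKM in PDN rats and 78.0 ± 1.39 in control rats (SD, n = 3 per group), and the nuclear lamin gene Lmna at 50.7 ± 3.48 FPKM in PDN rats and 50.6 ± 1.52 in control rats. Synm and Lmna were chosen after their values were seen, for their high level.

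Neuronal marker lists gave the setting for the neuronal filament genes. Of 20 pan-neuronal genes, 14 had an estimate above 0, where 43.4% of all tested genes had one. Of the 20, 0 passed, and their median log2 fold change was 0.056. That median was 0.12 without control 1, 0.025 without control 2 and 0.032 without control 3. Map2, a dendritic microtubule protein, was at 107.6 ± 4.27 FPKM in PDN rats and 92.1 ± 12.8 in control rats, and Isl1, a transcription factor of sensory neurons, at 22.5 ± 1.03 FPKM in PDN rats and 19.8 ± 1.41 in control rats (SD, n = 3 per group), both with an adjusted p of 0.999 in limma. Markers of small-diameter neurons (21 tested) had 10 estimates above 0 and 11 below, a median of -0.0068 and 0 past the threshold. Trpa1, an irritant-gated channel, was at 24.6 ± 4.04 FPKM in PDN rats and 32.5 ± 3.18 in control rats. Fam19a4, a secreted protein gene of low-threshold fibres, was at 5.32 ± 0.535 FPKM in PDN rats and 4.46 ± 0.465 in control rats. Both had an adjusted p of 0.999 in limma. The pan-neuronal and small-diameter genes named here had the smallest p of their lists, so a separation of their groups is no finding.

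Markers of large, neurofilament-rich neurons had estimates above 0 in 16 of 16 tested genes, where 43.4% of all tested genes had one, and a median log2 fold change of 0.11. None passed the adjusted threshold, and 1 (Necab2) had an unadjusted p under 0.05 in limma. Necab2 and Calb1 were named for the smallest p of the list, so a separation of their groups is no finding. Necab2, which encodes a calcium-binding protein, was at 1.86 ± 0.228 FPKM in PDN rats and 1.34 ± 0.114 in control rats, and the calcium buffer gene Calb1 at 3.32 ± 0.996 FPKM in PDN rats and 2.05 ± 0.670 in control rats (SD, n = 3 per group), both with an adjusted p of 0.999 in limma. The list score was 0.149, 0.00995 and 0.0414 in PDN 1, 2 and 3, against -0.0263, -0.0766 and -0.0977 in controls. Summed FPKM of the list was 1384, 1344 and 1329 in PDN 1, 2 and 3, against 1265, 1369 and 1146 in controls. By that measure the groups overlapped, through control 2. The sum leans on the genes of highest level. Spp1, the highest, was at 503.2, 487.6 and 468.6 FPKM in PDN 1, 2 and 3, against 417.4, 541.6 and 372.1 in control 1, 2 and 3. Whether the sums overlap without Spp1 was not tested. Pvalb, a calcium buffer of these neurons, is also a gene of fast muscle fibres. The list median stayed between 0.072 and 0.14 under every alternative run. The neurofilament triplet, which marks the same neurons, had estimates from -0.024 to 0.00072, and the difference between the list and the triplet was not tested.

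Nerve injury genes, which are read beside peripherin after axon damage, had 5 estimates above 0 and 8 below among 13 tested, with a median of -0.013 and 0 past the threshold. Atf3, a transcription factor induced in injured neurons, was at 2.95, 4.07 and 5.69 FPKM in PDN libraries, against 3.47, 3.41 and 2.92 in controls. The neuropeptide gene Gal was at 1.40, 1.18 and 1.54 FPKM in PDN libraries, against 2.71, 1.92 and 2.17 in controls, with an adjusted p of 0.909 in limma. Atf3 overlapped between the groups. The PDN values of Gal lay below the control values, but Gal was named for the smallest p of its list, so that this separation is no finding.

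**Figure D5:**
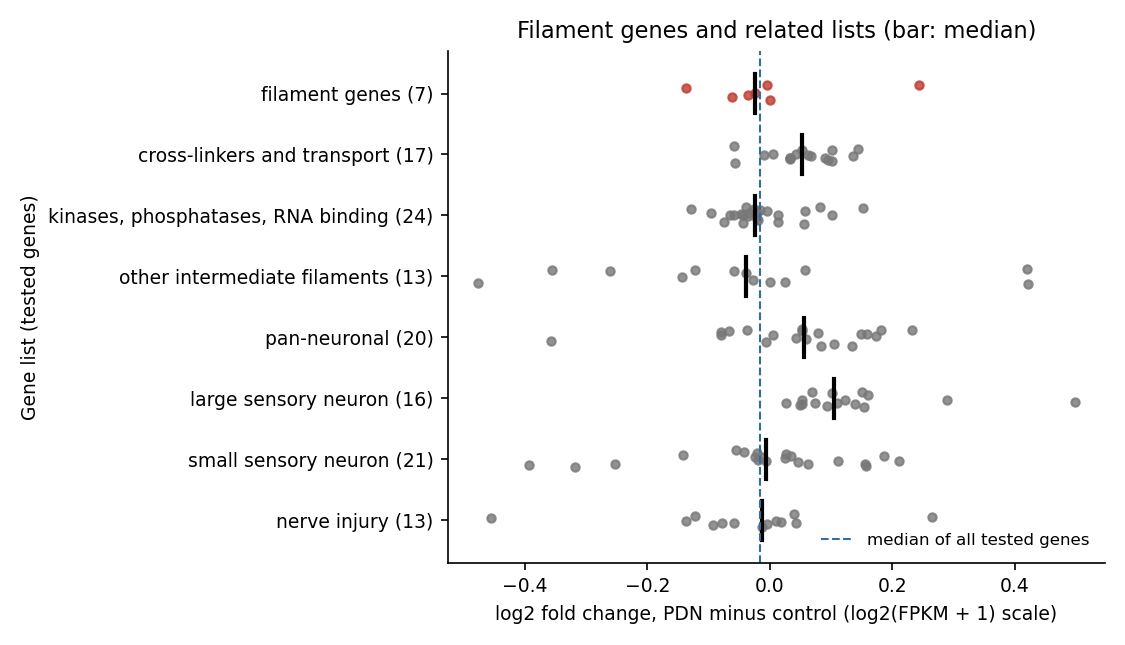
log2 fold change, PDN minus control, of the 7 filament genes (red) and of the tested genes of 7 related lists (grey), with black bars for list medians and a dashed line for the median of all tested genes (-0.016). The filament genes scatter about that line apart from Ina at 0.24, and all 16 large sensory neuron markers lie above 0.

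Marker lists of other cell types, among them those that carry Vim and Nes, had 0 genes past the adjusted threshold in limma. Estimates were below 0 in 56.6% of all tested genes, with a median of -0.016, against 12 of 15 satellite glia genes (median -0.15), 12 of 13 fibroblast genes (median -0.15), 12 of 13 endothelial genes (median -0.19), 8 of 9 pericyte genes (median -0.19) and 10 of 16 Schwann cell genes (median -0.033), the last a share near that of all genes. Macrophage genes had 7 of 9 below 0 (median -0.18), red blood cell genes 4 of 4 (median -0.82) and skeletal muscle genes 6 of 10 (median -0.016). The Schwann cell median ran from -0.090 to 0.037 with 1 library left out, and the skeletal muscle median from -0.84 to 1.60. The estimates of Vim and Nes were -0.036 and -0.14.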

How the data were processed

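RNA from 3 PDN and 3 control rats was sequenced from 1 µg of total RNA per strand-specific library, per the labels' protocols. No aligner, quantifier or genome build is given in the sources used here. Values in FPKM were used as the authors deposited them. A table of whole numbers that the authors deposited, named for read counts, was used only as a score. For its limma fit it was scaled by median of ratios. It was not taken as counts. Of its values above 1000, 54.5% to 54.9% equal the FPKM times the genomic span times 1 constant per library (relative tolerance 0.001). That constant, taken as the number of fragments, is the only measure of depth, and intervals for counting error could not be computed.

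The 13282 genes that reached an FPKM of 1 in 3 or more libraries entered a fit of log2(FPKM + 1) in limma 3.58.1 (R 4.3.3), with an intensity trend and no term but the group. Fold changes, PDN minus control, are on that scale, which understates changes of low genes. P-values were adjusted by Benjamini-Hochberg across the whole fit, at a threshold of 0.05, and the fit was tested on simulated data. Ratios of FPKM were compared with exact permutation tests. List scores are means of log2(FPKM + 1) minus the 6-library mean.

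The filament genes and the 15 lists were chosen with earlier results of these data known. Named are all 7 filament genes, the 2 tested genes with the smallest p in each list, and the 5 genes most like Nefl and Vim by Pearson correlation, with a mean FPKM of at least 5. Values of the named genes of the non-neuronal cell lists are not printed, and 1 gene of the cross-linker and transport list that the rule names is not reported here. Other named genes were chosen after their values were seen. Of the list genes, Cntnap2, Tafa1, Pecam1, Itgam, Myh2, Myh4 and Atp2a1 were not analysed here.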

Additional observations from a re-analysis of the deposited data

How the results depend on the processing

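The count of filament genes past the adjusted threshold was 0 in limma under each of the 17 alternatives, which changed the pseudocount (0.1), the filter, the scaling, the table, the empirical Bayes step or the libraries used. Of 119 recomputed fold changes of the 7 genes, 18 changed sign, none of them of Prph or Nes. Leaving out 1 library at a time, the log2 fold change ran from -0.082 to 0.052 for Nefl, -0.084 to 0.147 for Nefm, -0.071 to 0.108 for Nefh, -0.061 to 0.469 for Ina, -0.158 to 0.052 for Vim and -0.252 to -0.041 for Nes. Nefm turned to 0.018 with median-of-ratios scaling, 0.014 with upper-quartile scaling, 0.018 in the whole-number table and 0.037 with array weights. Median-of-ratios scaling raised the median log2 fold change of all tested genes by 0.0199, and upper-quartile scaling by 0.0158. The whole-number table was also scaled by median of ratios. Vim turned to 0.046 with array weights. Without control 2 and PDN 3, which held the most muscle RNA, Nefh was at -0.084. PDN 1, with the next highest muscle sum, stayed in that setting. Of 70 recomputed ratio differences, 12 changed sign. With 1 library left out, the log2 difference ran from -0.052 to 0.131 for Nefm/Nefl, -0.030 to 0.089 for Nefh/Nefl, -0.101 to 0.0087 for Prph/Nefl, -0.116 to 0.134 for Vim/Nefl and -0.244 to 0.0205 for Nes/Nefl. Without control 2 and PDN 3 it was -0.017 for Nefm/Nefl, -0.0013 for Nefh/Nefl, 0.0034 for Prph/Nefl, 0.0074 for Nes/Nefl and 0.031 for Nes/Vim. The cause of these turns was not tested.

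The count of all genes past the threshold was 0, and it was 1 without the filter, 1 with no intensity trend, 1 with robust empirical Bayes, 2 in the whole-number table and 9 without control 2 and PDN 3. It ran from 0 to 6 with 1 library left out, at 4 without PDN 1, 6 without PDN 3, 3 without control 1 and 2 without control 3. Over all tested genes, deviations of same-numbered libraries from their group means had correlations of 0.171, -0.12 and -0.0865. The numbers were therefore not taken as pairs. The neurofilament triplet followed the numbers in part. Against its 6-library mean, Nefl was at 0.103 in PDN 1 and 0.092 in control 1. It was at -0.164 in PDN 2 and -0.068 in control 2. Nefm and Nefh were also above their means in both libraries numbered 1 and below in both numbered 2. In PDN 3 and control 3, Nefl was above its mean, while Nefm and Nefh were above theirs in PDN 3 only. The replicate block cannot move a fold change, only SE (Nefl 0.067, Vim 0.14), and 0 genes passed. Removing the filter, the replicate block, no intensity trend and robust empirical Bayes cannot move a list median. Of 255 recomputed list medians, with those settings included, 250 moved by less than 1 SD between replicates. The other 5 were pan-neuronal (0.118 without control 1), fibroblast (-0.199 without PDN 3) and, without control 2 and PDN 3, fibroblast (-0.205), small sensory neuron (-0.098) and macrophage (-0.381). With 1 library left out, medians also changed sign for small sensory neuron (-0.065 to 0.062), nerve injury (-0.085 to 0.033), kinase (-0.039 to 0.00037), cross-linker (-0.0098 to 0.105), Schwann cell (-0.090 to 0.037) and skeletal muscle genes (-0.84 to 1.60). The number of fragments behind single genes could not be recovered, so the limit that depth sets on the low genes Ina and Nes is unknown.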

Other observations

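Ina was not alone in being higher in PDN 1 than in every other library. Among 9137 genes with a mean FPKM of at least 5, ranked by the log2 gap between PDN 1 and the next highest library, Ina took place 6, with a gap of 0.77. Of the 10 genes with the widest gap, Fkbp5 had 18.9 FPKM in PDN 1, while the other 5 libraries ranged from 6.09 to 8.48. Klf15 was at 11.3 FPKM in PDN 1 against 4.04 to 5.75, Sgk1 at 28.7 against 14.2 to 17.9, Ddit4 at 52.2 against 21.5 to 33.0, Per1 at 11.8 against 3.26 to 7.22 and Errfi1 at 11.6 against 5.64 to 7.15. The remaining places were taken by Cox7c (105.2 FPKM in PDN 1 against 12.1 to 18.5), Rpl11 (54.7 against 17.2 to 30.1) and Mapk1ip1l (18.5 against 8.48 to 10.1). Fragments of Cox7c and Rpl11 can be shared with near-identical copies, so their values are uncertain. The ranking was made after the values were seen, has no threshold and was not repeated for another library.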
